A study of Homo sapiens with 5 samples.

Results

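CLN8, COIL, GLDN and RYBP are 4 protein-coding transcripts that gave tall peaks with the Odd pool of oligonucleotides against the long noncoding RNA SNHG5 and no Even peak under their tallest summit. They were chosen by measured values, namely the height of the Odd peak and the absence of an Even peak at the same place. All rows of both deposited lists that overlapped the hg19 gene bodies were taken, which gave 9 of all Odd peaks (545 without and 360 with an Even peak at the same place) and 1 of 8626 Even peaks. Of the 9 Odd peaks, CLN8, COIL and RYBP held 1 each and GLDN held 6.

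The peaks come from RIA-seq, in which cross-linked RNA is retrieved with biotinylated DNA oligonucleotides against a bait and sequenced together with whatever RNA comes along. The cells were HCT116, an established human colorectal carcinoma line, fixed with glutaraldehyde, with no other treatment. The Odd list was made from 2 Odd libraries and the Even list from 1 Even library (labelled replicate 2). The shared control consisted of 2 libraries that the labels name INPUT and the study's methods describe as a luciferase pool. After removal of duplicates MACS kept 4904959 Odd, 1965614 Even and 3986040 control tags, which was 3.27%, 3.51% and 3.47% of the tags read. The bait carried 6 Odd and 9 Even peaks, with highest pileups of 1553 and 2200. The Odd value was near the 1560 that the limit on duplicate tags allowed. The 2 values are on different scales, since 1 Even tag adds 2.03. Lists of enriched regions hold no level for other genes, so the identity of the cells could not be checked against marker genes. Each list gives 1 value per peak, so no value has a replicate error and no test between the pools was run.

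SNHG5 is a snoRNA host gene: its introns carry small nucleolar RNAs and its spliced exons form a cytoplasmic RNA without a long reading frame. The 4 transcripts encode proteins of unrelated pathways. CLN8 is a membrane protein of the endoplasmic reticulum that helps lysosomal enzymes leave it, and its loss causes a neuronal ceroid lipofuscinosis. Coilin, the product of COIL, is the scaffold of Cajal bodies, where spliceosomal small nuclear ribonucleoproteins mature. Gliomedin, the product of GLDN, is a collagen and olfactomedin domain protein of Schwann cells that gathers sodium channels at nodes of Ranvier. RYBP is a subunit of variant Polycomb repressive complex 1, which ubiquitylates histone H2A.

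The sequences under the tallest summits are shown first because they share runs with stretches of SNHG5 that listed oligonucleotides target. All are read 5′ to 3′ on the strand of the transcript from GRCh37 (hg19). Capitals mark the longest run that the summit window shared with the canonical SNHG5 transcript in the sense direction. In the antisense direction the longest run was 7 nt at CLN8, 9 nt at COIL and 11 nt at RYBP. At GLDN exon 7 it was 10 nt, in the intron before the exon. The window was 250 bp to either side of the summit on the genome, so around the short GLDN exons it includes intron. The canonical SNHG5 transcript is 1316 nt long, more than the isoform that the study calls SNHG5. Targets of oligonucleotides 9, 10, 11, 12 and 14 were placed on a different annotated SNHG5 transcript from the other targets. A longest run can thus lie outside the studied isoform, and runs in parts of that isoform may have been missed. The first pair is COIL, chr17:55028074-55028103, minus strand, and SNHG5, chr6:86387866-86387895, minus strand.
COIL: aagcaacctGTGGCACAGTGGgtgatgata
SNHG5: ctgtcttcaGTGGCACAGTGGagcagctct
The second pair is RYBP, chr3:72424690-72424719, minus strand, and SNHG5, chr6:86387869-86387898, minus strand.
RYBP: acttggtaTTCAGTGGCACAGaaagcaggt
SNHG5: gcgctgtcTTCAGTGGCACAGtggagcagc
The third pair is GLDN exon 7, chr15:51692419-51692448, plus strand, and SNHG5, chr6:86386855-86386884, minus strand.
GLDN: ccttggttgGAAAAGCTGATgagaaagcca
SNHG5: ctgttgtgtGAAAAGCTGATaagaaaacca
The COIL and RYBP runs overlap in GTGGCACAG, which lies in the target of oligonucleotide 3, chr6:86387876-86387895. The GLDN run opens the target of oligonucleotide 18, chr6:86386856-86386875. The scheme of the probes marks oligonucleotide 3 as Odd and oligonucleotide 18 as Even. The CLN8 window held the same 9-nt run, with its sequence not printed here.

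CLN8 had the highest summit among all Odd peaks that no Even peak overlapped. Its only peak spanned chromosome 8 from 1732957 to 1734545, with the summit at 1733649. Pileup, the number of extended tags over the summit, was 947 (95% exact Poisson interval 888 to 1009, which covers counting error only). The control background was 22.2 on the Odd scale, the weight of 18 control tags, and fold enrichment was 42.75 (95% interval 26.9 to 72.5 from counting error of both tag numbers). The peak lay wholly in the 3′ UTR, in the last of 3 exons. Along the canonical mature transcript of 7084 nt it ran from position 5305 to 6893, and its summit was 4919 nt past the end of the coding sequence. It was 1589 bp long, against a median of 533 bp for all Odd peaks.

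The CLN8 peak lay over a tandem repeat. In the reference, units of 45 bp filled 558 bp under the peak, about 12.4 units with 94.9% identity between neighbours. Of the 454 words of 48 nt in the summit window 255 (56.2%) occurred more than once in the genome, and all 255 recurred only inside this peak. The run shared with SNHG5 was present 9 times in the peak, from 139 bp before the summit to 266 bp after it, in steps of 45 or 90 bp. Those were all the copies in the mature CLN8 transcript, and no other canonical coding transcript of 19894 held as many. The pileup stood at 60.7% of the 1560 tags that the limit of 3 tags per position and strand allowed. Per the study's methods the STAR defaults governed reads that fit several places, and the part of such reads in the height was not tested.

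COIL had the highest Odd-only peak in coding sequence apart from SAT1 and CANX, whose control backgrounds were 318 and 134. The peak spanned chromosome 17 from 55027575 to 55028415, with the summit at 55028070 in exon 2 of 7. Pileup was 650 (601 to 702) over a control background of 12.3, equal to 10 control tags, and the fold was 52.82 (28.5 to 111). The peak began at the first base of exon 2, position 277 of the 2634-nt transcript, and ended at position 1059, inside the 1108 nt of that exon. On the genome it also reached into the intron before exon 2, where MACS lays out extended tags without regard to splicing. The run of 12 nt shared with SNHG5 began 24 nt upstream of the summit.

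A copy of part of COIL lay elsewhere. Of the 454 words 35 (7.71%) were also found at chr14:39855549-39855763, in the processed pseudogene COILP1 within MIA2. COILP1 carried an Odd peak of its own, chr14:39855402-39855975, with a pileup of 70, a background of 0.472 and no Even peak. The pseudogene also held the 9-nt run, 54 nt before its summit. Over the whole COIL peak 26 words were also found at chr4:123945145-123945749, in SPATA5, and neither list had a peak over that stretch. COIL and COILP1 values are uncertain where reads fit more than 1 of these places. Elsewhere SPATA5 had an Odd-only peak in its 3′ UTR, chr4:124236735-124237213, with a pileup of 34, and its window held the 9-nt run.

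RYBP had a peak in the 3′ UTR, chromosome 3 from 72424368 to 72425035, with the summit at 72424677 in the last of 4 exons. Pileup was 479 (437 to 524) over a background of 11.5, and the fold was 41.59. The summit was at position 3514 of 7215, 2862 nt past the coding end. The peak covered 9.26% of the mature transcript, against 22.4% for CLN8, 29.7% for COIL and 30.5% for GLDN. No 48-nt word of the RYBP window, nor of any GLDN window, was found a second time in the genome. In all 891 Odd windows searched, 644 (72.3%) likewise had no word elsewhere. The 13-nt run shared with SNHG5 began 34 nt upstream of the RYBP summit.

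On the genome GLDN differed in that its signal was spread over many exons. Its exons 4 to 9 are 84 to 151 nt long and adjoin in the mature transcript, from position 464 to 1208. The CLN8, COIL and RYBP peaks lay in exons of 6321, 1108 and 6813 nt. In mature sequence the GLDN peaks covered 1506 nt, against 1589 nt for the single CLN8 peak. The 6 GLDN Odd peaks touched 7 of 10 exons, from exon 4 to exon 10, and all 6 summits fell in coding sequence. The exon 10 peak reached past the coding end at position 1683 into the 3′ UTR. In transcript order the pileups were 54 in exon 4, 147 in exon 5, 306 in exon 6, 528 in exon 7, 105 in exon 9 and 59 in exon 10. The 95% counting intervals of neighbouring summits did not overlap from exon 4 to exon 10. Pileup at the summits thus climbed to the peak over exons 7 and 8 and then fell. Exon 8 had no summit of its own but lay inside the peak of exon 7, chr15:51692178-51692928. Tags extended to 260 bp can reach across the short intron between them. Tags of exon 8 may thus add to the exon 7 summit, and their part in it was not tested. The summit in exon 7 held 44.04% of the pileup summed over the 6 summits.

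Along the mature transcript the summits lay at positions 557, 706 and 835 in exons 4 to 6, and at 919, 1098 and 1394 in exons 7, 9 and 10. The 11-nt run shared with SNHG5 began at position 887, and it was searched for around the tallest summit, so their nearness is not a result. The weaker GLDN peak in exon 10 held runs of like length. The exon 10 window shared AAAGGGCCTTT, also 11 nt, with the canonical SNHG5 transcript, and AGTGTGGACG, 10 nt, with the target of oligonucleotide 9. The whole exon 6 peak also shared 11 nt with SNHG5, but in the intron before exon 6, outside the mature transcript. In the genome the same summits are separated by introns and span from 51676075 to 51696659. Exons 1 to 3, which make up the first 463 nt, had no peak. Nor had the 3′ UTR beyond position 1969, although the last exon was 3724 nt long.

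**Figure D1:**
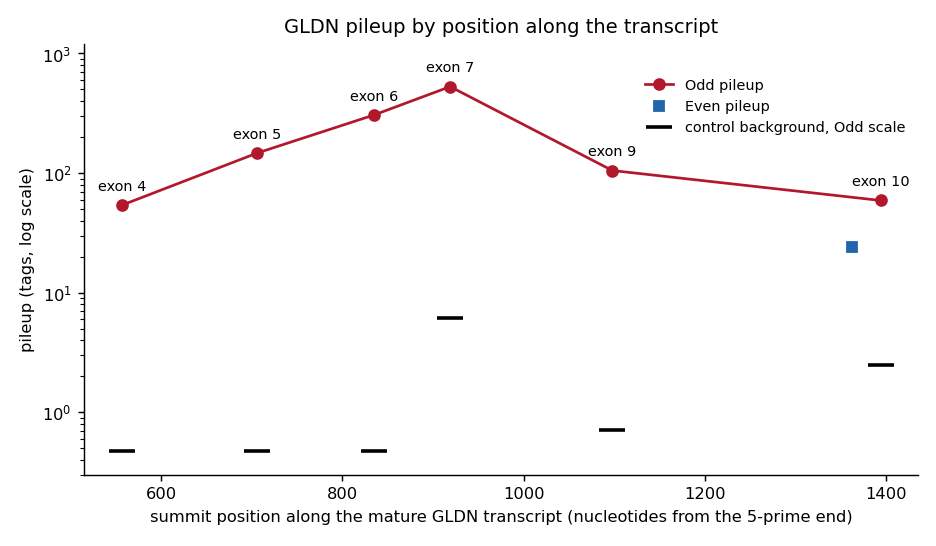
Pileup at the GLDN summits in tags (log scale) by their position in nucleotides from the 5′ end of the mature transcript. Odd pileup was 54 in exon 4, 528 in exon 7 and 59 in exon 10, the Even peak had 24, and control background lay between 0.472 and 6.15.

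Fold enrichment ordered the GLDN exons otherwise than pileup did. It was 114.33, 311.22 and 647.85 in exons 4, 5 and 6, 85.82 in exon 7, 149.18 in exon 9 and 23.97 in exon 10. The background was 0.472 in exons 4, 5 and 6. That is the level MACS assigned from the genome-wide tag density, and 113 of all Odd peaks (12.5%) had it. In exon 7 the background of 6.15 equalled 5 control tags and in exon 10 that of 2.46 equalled 2, so the folds carry wide counting intervals, 36.5 to 265 and 6.35 to 203. The 647.85 of exon 6 was the highest fold in the Odd list and stands over a background below the 1.23 that 1 control tag adds. Over all Odd peaks the median background was 3.69 and the median fold 22.75.

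GLDN also had many peaks, counted on the genome, where introns part its short exons. Of 20176 annotated protein-coding genes 396 (1.96%) had an Odd peak in an exon, 65 had at least 2, and GLDN with 6 came after SPATS2 with 13. GLDN was the only gene with at least 5 exonic Odd peaks free of an Even peak.

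By choice of the genes, 8 of their 9 Odd peaks had no Even peak, and over the whole Odd list 545 (60.2%) had none. Only the exon 10 peak of GLDN did. That Even peak spanned chr15:51696467-51696873 with a pileup of 24, a fold of 16.78 and a −log10 p of 21.76, and its summit was 31 bp from the Odd one. Its background was 1.43 on the Even scale. Both pools thus gave a peak in GLDN exon 10, where the Odd pileup of 59 was the second lowest of 6.

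A missing Even peak bounds the Even signal but does not show that it was 0. With the local background brought to the Even scale and the MACS threshold of 0.001, the highest Even pileup that would have given no peak was 34 at CLN8, 22 at COIL, 13 at GLDN exon 7 and 21 at RYBP. Odd pileups put on the same scale were 858, 589, 479 and 434. The Odd signal was thus 25.2, 26.8, 36.8 and 20.7 times the bound. At GLDN exons 4, 5 and 6 the bound was 2, and at exon 9 it was 3. As 1 Even tag adds 2.03 and deposited pileups are mostly whole numbers, 1 Even tag there may have given no peak. These bounds assume the background of the Odd list. They rest on the p at the summit alone and include no limit on peak width, so a higher but narrow pileup could also have gone uncalled. At 239 summits shared by both lists within 50 bp the Even background was 0.894 times the Odd one (median), against 0.906 from the tag totals. The lowest 5% of these ratios were below 0.801 and the highest 5% above 1.13. At GLDN exon 10 the Even peak had a background of 1.43, less than the 2.23 assumed there from the Odd list.

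**Figure D2:**
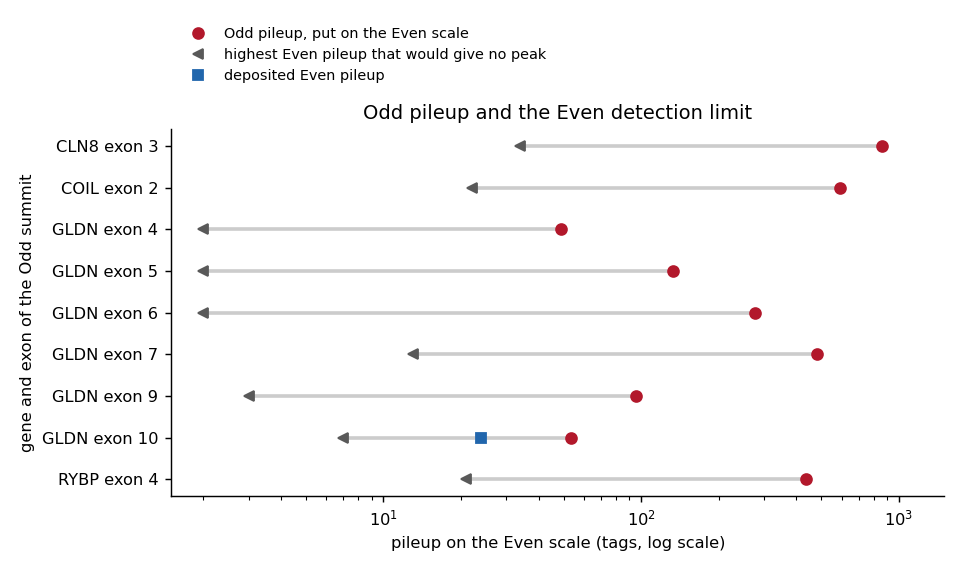
Odd pileup of the 9 peaks put on the Even scale (circles), the highest Even pileup that would have given no peak (triangles) and the deposited Even pileup (square), in tags on a log axis. Each circle lies to the right of its triangle, by 36.8 times at GLDN exon 7, and the square at GLDN exon 10 marks 24.

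Among Odd-only peaks ranked by pileup the 4 tallest member peaks were at places 1 (CLN8), 4 (COIL), 6 (GLDN) and 8 (RYBP). Between them stood SAT1 with 729, CANX with 715 and 512, and AKAP11 with 540. PCNX1 followed RYBP with 469. SAT1, which encodes a polyamine acetyltransferase, and CANX, which encodes the chaperone calnexin, had backgrounds of 318 and 134 and folds of 2.29 and 5.33. AKAP11, an anchor for protein kinase A, had a fold of 25.81. Each member had a nearest gene by pileup, fold and peak length, over 323 genes. RBM23 was nearest to CLN8, at a distance of 1.19 on the log2 scale, and its 3′ UTR peak had a pileup of 437. AKAP11 was nearest to COIL (1.08) and CDC5L, a splicing factor, to GLDN (1.11). IL13RA1, a cytokine receptor chain, was nearest to RYBP (0.77).

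The shared runs were counted over all peaks, as descriptions and not as binding sites. GTGGCACAG, searched on both strands, was present in 71 of 885 Odd windows outside SNHG5 (8.02%). Among Odd peaks without an Even peak 70 of 544 windows (12.9%) held it, against 1 of 341 (0.293%) of Odd peaks with an Even peak. Among the Even peaks of smallest p, taken in the number of the Odd list, 744 had no Odd peak and 6 of their windows (0.806%) held it. With windows that have copies left out, the run was in 50 of 403 (12.4%) Odd-only windows and 0 of 238 shared ones, where a count of 0 allows up to 1.26%. Where the transcribed strand was known from exons, 29 of 31 Odd-only windows held the run in the sense direction. They included RBM23 and PCNX1. In 6 of the 29 the run began 10 to 40 nt upstream of the summit, COIL and RYBP among them. These counts include the windows in which the run was found. With all windows of the 4 genes and COILP1 left out, 66 of 535 Odd-only windows (12.3%) held it, and 25 of 27 held it in the sense direction.

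The GLDN run was rare. GAAAAGCTGAT was in 4 of 885 Odd windows (0.452%), 3 of them Odd-only, and in 2 of the 744 Even windows (0.269%). In addition to GLDN, TP73 held it in the sense direction, 36 nt before its summit. Without gaps, GLDN exon 7 matched the target of oligonucleotide 18 at 18 of 20 positions, and 0.678% of Odd windows matched any of 14 targets of 20 nt that well on either strand. RYBP matched the target of oligonucleotide 3 at 15 positions, a level that 16% of Odd windows reached. COIL and CLN8 matched it at 13, and the best match of an Odd window to any of these targets was 14 (median). For COIL the best match was to the target of oligonucleotide 18, at 14 positions. Runs as long as those at CLN8 and COIL were common. With any target, on either strand, 79.7% of Odd windows shared at least 9 nt and 31.9% at least 11 nt. At least 13 nt, the length of the RYBP run, was shared by 9.6%, whatever the sequence. At least 13 nt were shared by 13.2% of Odd-only windows and by 3.81% of Odd windows with an Even peak. No odd-numbered target matched GLDN exon 7 at more than 12 positions. Whether any of these stretches was bound was not tested.

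**Figure D3:**
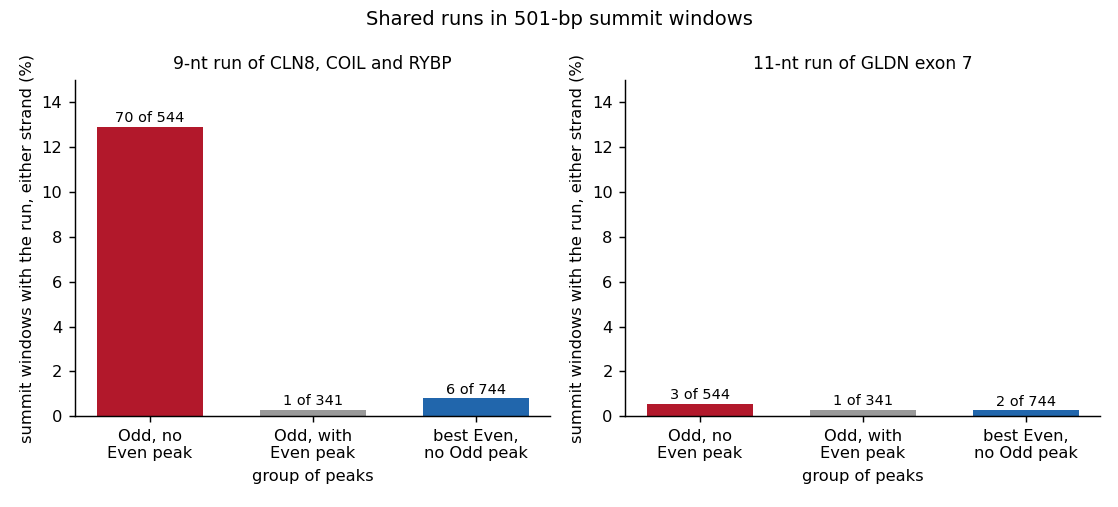
Percent of summit windows (250 bp to either side) that held, on either strand, the 9-nt run of CLN8, COIL and RYBP (left) or the 11-nt run of GLDN exon 7 (right), with counts above the bars. The 9-nt run was in 70 of 544 Odd windows without an Even peak and in 1 of 341 with one, and the 11-nt run was in 3 and 1.

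Lists of genes from the same pathways are read beside the shares over all protein-coding genes, of which 1.96% had an exonic Odd peak and 12.5% an exonic Even peak. Of 12 other neuronal ceroid lipofuscinosis genes, none had an Odd peak in an exon and DNAJC5, a vesicle chaperone gene, had an Even peak of pileup 42 in its 3′ UTR. Of 32 other genes of Cajal bodies and the SMN complex, 3 had an Odd peak. NOP58, a box C/D snoRNP core gene, had pileups of 221 and 171. SART3, a U4/U6 recycling factor, had 66, and DKC1, the pseudouridine synthase dyskerin, had 62. Even peaks overlapped the NOP58 peak of 221 and the SART3 peak, but not the NOP58 peak of 171 or the DKC1 peak. Folds of these Odd peaks ran from 5.61 to 8.94, against a median of 22.75 over all Odd peaks. Even peaks were found in 6 of these 32 genes, namely GEMIN2, STRAP, NOLC1, NOP58, SART3 and ICE1, with pileups from 8 to 231.

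Of 27 other node of Ranvier and olfactomedin genes, 0 had an Odd peak, and ANK3 and SPTBN4, which encode the nodal ankyrin and spectrin, had Even peaks of pileups from 6 to 10. Of 36 other Polycomb repressive complex 1 genes only YAF2 had Odd peaks. YAF2 encodes the paralogue of RYBP in the same complex. Its pileups were 240 and 89, both in coding sequence and both without an Even peak, whereas the RYBP peak lay in the 3′ UTR. Even peaks were found in 7 of the 36, PCGF5, CBX7, SCMH1, BCOR, BCORL1, MGA and TFDP1, with pileups from 4 to 36.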

How the data were processed

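Reads were trimmed by the authors (cutadapt) and aligned by STAR to hg19. Peaks were called in MACS 2.0.9 at a threshold of 0.001 over the pooled control, with the smaller data set scaled to the larger. The Odd list was cut by reproducibility between its libraries. The Even list was deposited without that step. The deposited lists give pileup signal, −log10 p-value and fold enrichment per peak, and their q columns were not used. Tags were extended to 260 bp (Odd) and 290 bp (Even), and at most 3 and 2 tags per position were kept.

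Background was taken as pileup over fold. A Poisson tail on it returned the deposited p within 2% for 93.4% of Odd and 96.0% of Even peaks. Overlap meant at least 1 bp. Regions were read at the summit from GENCODE 44 lifted to GRCh37. Word searches and overlaps (Python 3.11.15, pysam 0.24.0, SciPy 1.17.1) were checked on simulated data. The sequence of an oligonucleotide placed its target, and printed letters are from the reference. Of 20 listed oligonucleotides 16 matched an annotated SNHG5 transcript. Peaks carry no strand. The genes, the lists and the comparison with oligonucleotide targets were chosen with earlier results of these data known. Named besides the members are SNHG5, the most alike gene of each, neighbours in the ranking by pileup, and genes of the fixed lists with an exonic peak. SPATS2, TP73, COILP1, SPATA5 and ZBTB25 are exceptions, chosen once their values had been seen.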

Additional observations from a re-analysis of the deposited data

How the results depend on the processing

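Of 93 values recomputed under other settings, 62 stayed within 1.5 times or within their counting interval. With only as many Even peaks as Odd ones, those of smallest p, GLDN had 0 Even peaks, and then all 9 Odd peaks were free of one. Under (pileup + 1) / fold − 1 the background became negative in GLDN exons 4, 5, 6 and 9 (-0.519, -0.524, -0.526 and -0.289), and that form did not return the deposited p. Ranks in the Odd list by pileup, 6 (CLN8), 13 (COIL), 26 (GLDN) and 31 (RYBP), became 285, 212, 98 and 297 by fold, and 1, 2, 5 and 15 by the deposited p. With 36-nt words 66.1% of CLN8 and 16.3% of COIL words recurred, and over the whole CLN8 peak 17.7%. Over all SNHG5 transcripts the longest run in the window of GLDN exon 4 was 17 nt, mostly T. It lay in the intron before that exon. At the largest p in the Even list, 0.437 from a peak of pileup 0, the Even bounds were 20 at CLN8, 11 at COIL, 10 at RYBP, and 0, 0, 0, 5, 0 and 1 in GLDN exons 4, 5, 6, 7, 9 and 10. With the median Even background they were 3 at CLN8, COIL, RYBP and GLDN exons 7 and 10. Oligonucleotide targets in place of the whole transcript, chosen after seeing the data, moved no longest run by over 1.5 times. No paired analysis was possible because the Odd list pools its libraries and the Even list holds 1, so no library could be left out either. The precision is that of tag counts, and the Even library had fewer tags than the Odd pool.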

Other observations

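In the 19894 canonical coding transcripts the 9-nt run GTGGCACAG was present in 573, of which 35 (6.11%) had an exonic Odd peak without an Even peak, against 1.28% of transcripts lacking the run. An exonic Even peak was found in 15.4% and 12.5%. The 12-nt COIL run was in 12 transcripts, of which 4 had such an Odd peak, and the 13-nt RYBP run was in 3, of which RYBP and ZBTB25 had such a peak. The runs were picked from these peaks, and transcript length and abundance were not matched, so the counts are descriptions.

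The smaller YAF2 peak, chr12:42555214-42555730, held ATAAGAAAACC, 11 nt of the same oligonucleotide 18 target that GLDN exon 7 matched, beginning 30 nt after its summit. This run closes that target, whereas the GLDN run opens it. In the taller YAF2 peak, of pileup 240, the longest run found with any target was 8 nt. Neither YAF2 peak held GTGGCACAG in the sense direction. Runs of at least 11 nt with some target, on either strand, were present in 31.9% of Odd windows and 34.6% of Odd-only ones.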
